A study of Mus musculus with 22 samples.

Results

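The cystine import and glutathione synthesis genes are 9 genes chosen by name: Slc7a11, Slc3a2, Gclc, Gclm, Gss, Gsr, Gpx2, Gpx4 and Chac1. All 9 were found among the 56748 gene IDs listed for each of 22 bulk RNA-seq libraries, and all 9 passed the filter on low counts, as 9 of 19202 genes tested. The libraries are primary mouse squamous carcinomas of the buccal mucosa, started by injecting 4-hydroxytamoxifen there with or without BAP (benzo[a]pyrene), a tobacco carcinogen. Every tumour carried Krt5CreER-T2/+, a tamoxifen-inducible Cre recombinase driven by the promoter of the basal keratinocyte gene Krt5, together with Trp53fl/fl and 2 copies of a Cre-switched, activated PIK3CA(H1047R) transgene at Rosa26. The untreated tumours were 6 Keap1-wildtype and 5 Keap1-deleted, and the BAP tumours again 6 Keap1-wildtype and 5 Keap1-deleted, where deleted means that Keap1fl/fl was added. Cells that do not descend from one in which the Cre acted keep Trp53 and Keap1, so a bulk tumour is a mixture. Sex and age are not stated, nor is whether different tumours came from different animals. The p values set differences against the spread between these tumours, taken as independent. Tumours that share an animal could make them too small.

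Cystine, the oxidised form of cysteine, enters cells through system xc-, in which SLC7A11 (xCT) exchanges it for glutamate and SLC3A2 is the heavy chain that carries xCT to the membrane. Cysteine is then joined to glutamate by glutamate-cysteine ligase, made of the catalytic subunit GCLC and the modifier GCLM, and glutathione synthetase (GSS) adds glycine. Glutathione peroxidases such as GPX2, an epithelial enzyme, and GPX4, which reduces lipid hydroperoxides in membranes, oxidise glutathione, glutathione reductase (GSR) restores it, and CHAC1 breaks it down. KEAP1 marks the transcription factor NRF2 for degradation, and several of these genes are textbook NRF2 targets that respond through antioxidant response elements. Slc7a11 and Chac1 are also targets of ATF4, the factor of the integrated stress response, which binds C/EBP-ATF response elements.

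Promoters of the members were read to see which held the core of either element near the start site. RefSeq promoter sequences (GRCm38.p6), limited to the 250 bases before the start, were at hand for 7 of the 9 genes, all but Gclc and Gsr. The motifs searched on both strands were TGACNNNGC, the antioxidant response element core, and TGATGNAA, the C/EBP-ATF response element core. The 3 promoters with a match are printed 5′ to 3′ on the gene's strand, with the matches in capitals.
Slc7a11 promoter, chr3:50443614-50443863, strand -: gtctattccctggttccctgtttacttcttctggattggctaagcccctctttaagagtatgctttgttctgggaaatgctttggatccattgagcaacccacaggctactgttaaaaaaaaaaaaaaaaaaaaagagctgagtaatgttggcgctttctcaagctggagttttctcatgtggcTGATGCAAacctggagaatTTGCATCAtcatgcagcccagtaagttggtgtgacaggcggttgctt
Gclm promoter, chr3:122245307-122245556, strand +: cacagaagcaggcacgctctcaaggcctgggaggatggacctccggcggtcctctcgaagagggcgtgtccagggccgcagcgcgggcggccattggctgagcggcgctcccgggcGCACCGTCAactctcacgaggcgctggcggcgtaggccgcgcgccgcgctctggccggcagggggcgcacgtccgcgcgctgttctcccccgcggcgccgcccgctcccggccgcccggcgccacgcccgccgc
Chac1 promoter, chr2:119350992-119351241, strand +: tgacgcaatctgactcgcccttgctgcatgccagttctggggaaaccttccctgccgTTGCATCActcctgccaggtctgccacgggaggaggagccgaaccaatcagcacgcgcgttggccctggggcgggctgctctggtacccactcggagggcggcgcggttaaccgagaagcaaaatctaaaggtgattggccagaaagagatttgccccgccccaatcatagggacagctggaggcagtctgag
Gclm held GCACCGTCA, the antioxidant core on the opposite strand, 134 to 126 bases before its start, and no other member's window held that core. It occurred in 10.2% of 32851 promoter windows of the same length. Slc7a11 held 2 C/EBP-ATF cores, TGATGCAA at 66 to 59 bases and its reverse complement TTGCATCA at 47 to 40 bases before the start. Chac1 held TTGCATCA at 193 to 186 bases, and this core occurred in 3.45% of windows. No match says only that these letters are not in the window, and a match is not a measured binding site.

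The libraries held 29235010 to 39862777 expected counts. Values below are CPM, counts scaled to library size after TMM, a trimmed-mean correction for library composition, and log2 differences with their standard error (SE) from edgeR. Keap1 itself was 45.8 to 78.9 CPM in wildtype untreated, 52.3 to 64.6 in wildtype BAP and 22.2 to 36.4 in deleted untreated tumours. It was 29.8, 65.6, 9.45, 32.2 and 15.0 CPM in the 5 deleted BAP tumours, so the library labelled Keap1-deleted BAP 2 lay above every wildtype BAP library. Krt14, a keratin of basal keratinocytes, ranged from 9991 to 36962 CPM in 5 wildtype untreated tumours but was 763 in Keap1-wildtype untreated 6. That library also held the highest summed level of 10 fibroblast markers in its group, 34793 CPM, where the group median was 2385. Results are therefore also given without Keap1-wildtype untreated 6 and the library labelled Keap1-deleted BAP 2. The salivary gland markers summed to 1402 CPM in Keap1-deleted BAP 1 and to at most 55.5 in any library of the other groups, where 4 or 5 of the 8 markers were at 0.

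Slc7a11 (ENSMUSG00000027737, chromosome 3, 49892526 to 50443614, minus strand; positions from GENCODE M21, GRCm38) was highest in the Keap1-deleted untreated tumours. Its levels there were 960.6, 793.3, 44.9, 114.0 and 1149.5 CPM. In wildtype untreated tumours the lowest, median and highest were 16.2, 108 and 142 CPM, and in wildtype BAP tumours 71.7, 117 and 163 CPM. Thus 3 of the 5 deleted untreated tumours stood above every wildtype tumour and the other two lay inside the wildtype range. In the deleted BAP tumours the levels were 59.1, 81.8, 8.63, 21.97 and 36.9 CPM, with 4 of 5 below every wildtype BAP tumour. Slc3a2 (ENSMUSG00000010095, chromosome 19, 8706882 to 8723369, minus strand), which also serves other amino acid transporters, had the same 3 high tumours at 626.5, 607.1 and 721.0 CPM. The remaining deleted untreated tumours held 204.0 and 282.4 CPM, within the 201 to 291 CPM of the wildtype untreated group. Its deleted BAP tumours held 299.5, 253.9, 174.7, 150.9 and 242.0 CPM.

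Gclc (ENSMUSG00000032350, chromosome 9, 77754535 to 77794485, plus strand) was at 872.4, 943.0, 131.2, 195.0 and 947.0 CPM in the deleted untreated tumours. The wildtype untreated tumours ran from 23.4 through a median of 80.5 to 331 CPM, and the wildtype BAP tumours from 35.5 through 66.7 to 188 CPM. The same 3 deleted tumours as for the importer, numbers 1, 2 and 5, were thus the high ones for the catalytic subunit. With BAP the deleted tumours held 175.5, 135.0, 52.5, 50.5 and 126.7 CPM of Gclc, all inside the wildtype BAP range. The modifier subunit Gclm (ENSMUSG00000028124, chromosome 3, 122245557 to 122270732, plus strand) was at 424.6, 367.7, 121.5, 127.9 and 520.0 CPM in deleted untreated tumours, against 50.3 to 253 CPM in wildtype untreated ones. With BAP the deleted tumours held 388.3, 197.9, 89.8, 146.5 and 196.9 CPM of Gclm, and 4 of these 5 exceeded every wildtype BAP tumour, whose highest was 127 CPM.

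Gss (ENSMUSG00000027610, chromosome 2, 155563181 to 155592810, minus strand) was at 197.5, 220.5, 56.1, 81.3 and 256.3 CPM in deleted untreated tumours, and 4 of these 5 exceeded the wildtype untreated range of 44.9 to 66.3 CPM. Its deleted BAP tumours lay around the wildtype BAP ones, at 92.7, 45.4, 37.7, 28.2 and 45.7 CPM against 37.1 to 88.3 CPM. Gsr (ENSMUSG00000031584, chromosome 8, 33652523 to 33698163, plus strand) differed from the biosynthetic genes in that all 5 deleted untreated tumours were high, at 179.0, 287.6, 188.3, 210.9 and 208.5 CPM. Wildtype untreated tumours ranged from 31.5 through a median of 57.2 to 171 CPM, the highest being number 6. The deleted BAP tumours held 217.8, 195.1, 65.8, 75.7 and 130.8 CPM of Gsr, and 4 of 5 exceeded the wildtype BAP range of 41.4 to 74.6 CPM.

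The peroxidase genes had opposite orders of levels in the deleted tumours. Gpx2 (ENSMUSG00000042808, chromosome 12, 76792333 to 76795554, minus strand) was at 882.6, 518.8, 80.5, 116.2 and 628.6 CPM in deleted untreated tumours. It was at 23.1, 23.2, 9.47, 0.215 and 30.1 CPM in deleted BAP tumours, so that each of these lay below each deleted untreated tumour. Wildtype untreated tumours ran from 0.415, in number 6, through 53.5 to 108 CPM, and wildtype BAP tumours from 13.9 through 69.0 to 417 CPM. Gpx4 (ENSMUSG00000075706, chromosome 10, 80047166 to 80056439, plus strand) was highest where Gpx2 was lowest. It was at 557.6, 287.5, 272.2, 362.6 and 432.6 CPM in deleted BAP tumours and at 215.1, 208.2, 187.4, 192.0 and 146.5 CPM in deleted untreated tumours, again without overlap. Wildtype untreated tumours held 83.0 to 296 CPM of Gpx4 and wildtype BAP tumours 94.9 to 317 CPM. Chac1 (ENSMUSG00000027313, chromosome 2, 119351229 to 119354381, plus strand) was low throughout, with group medians of 8.43 and 9.41 CPM in wildtype untreated and BAP tumours and 7.72 and 14.6 CPM in deleted untreated and BAP tumours. Its highest level was 37.3 CPM, in Keap1-wildtype BAP 4.

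**Figure D1:**
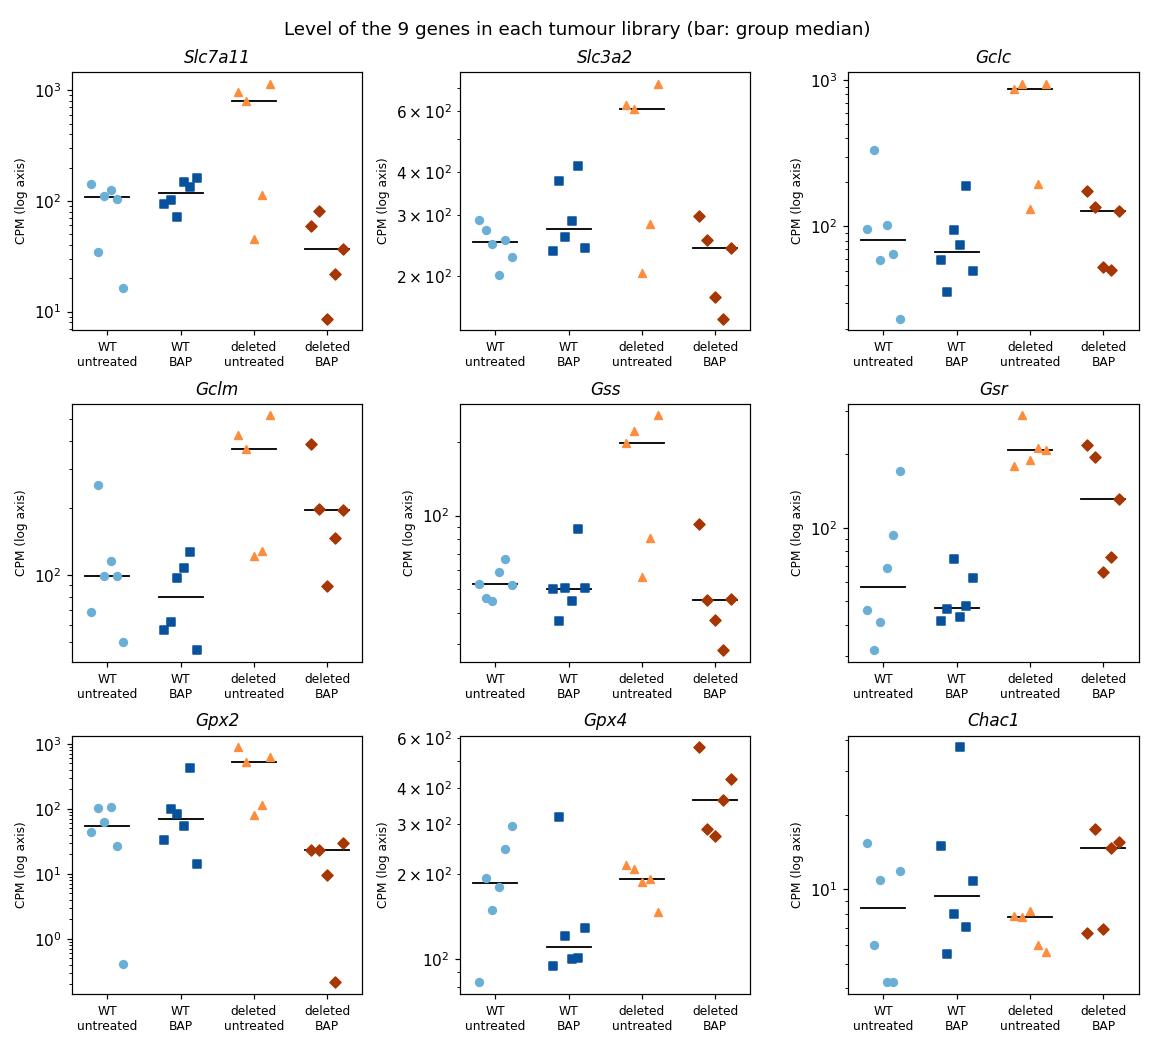
Level of each of the 9 genes in the 22 tumours, in CPM on a log axis, with 1 point per library and a bar at the group median. In the Keap1-deleted untreated group Slc7a11, Slc3a2, Gclc and Gclm each show 3 high and 2 low points, while the 5 points of Gsr lie together between 179 and 288 CPM, and Gpx4 is highest in the Keap1-deleted BAP group.

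Keap1 deletion in untreated tumours was compared over 5 deleted and 6 wildtype tumours. Of the 9 genes 1 rose, 0 fell and 8 did not pass an edgeR adjusted p of 0.05, where 0.292% of all genes tested passed, 0.214% higher and 0.0781% lower. The median log2 difference of the 9 was 1.51, against -0.05 over all genes tested. Gss rose by 1.60 on the log2 scale (SE 0.34, adjusted p = 0.0482). Slc7a11 was higher by 2.78 (SE 0.70, adjusted p = 0.0739), Gclc by 2.45 (SE 0.63, adjusted p = 0.0805) and Gclm by 1.45 (SE 0.45, adjusted p = 0.121), none of which passed. Gsr was higher by 1.51 (SE 0.37, adjusted p = 0.0739), and its groups did not overlap, as was the case with the deleted group higher for 1.23% of genes. Slc3a2 differed by 0.97 (adjusted p = 0.101), Gpx2 by 2.96 with an SE of 1.04 (adjusted p = 0.163), Gpx4 by -0.01 and Chac1 by -0.31.

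These calls depended on which libraries were in the fit. Without Keap1-wildtype untreated 6, where the share of all genes called was 14.4%, the members that passed were 5, Slc7a11 at 2.56 (adjusted p = 0.0204), Slc3a2 at 0.95, Gclc at 2.24, Gss at 1.59 and Gsr at 1.94 (adjusted p = 0.00194). The same 5 passed when the library labelled Keap1-deleted BAP 2 was left out as well, with adjusted p from 0.00234 to 0.0412, and 12.9% of all genes passed in that fit. Leaving out Keap1-deleted untreated 3, the tumour of this group with the least Krt14, gave 3 (Slc7a11, Slc3a2 and Gss), where 0.272% of all genes passed. The Gss call held in 5 of 22 fits that left out 1 library, those without Keap1-wildtype untreated 6, Keap1-deleted untreated 3 or 4, or Keap1-deleted BAP 1 or 4, and its adjusted p reached 0.137 in the others. DESeq2 called 7 of the 9, all but Gpx4 and Chac1, and 4.8% of all genes. With only the groups compared in the edgeR fit 0 of the 9 and 0.0% of all genes passed, and with the final R of some sample titles as a covariate 0 of the 9 and 0.146% of all genes.

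In BAP tumours Keap1 deletion was likewise compared over 5 deleted and 6 wildtype tumours. Gsr rose by 1.38 (SE 0.37, adjusted p = 0.00618), Gpx4 by 1.41 (SE 0.32, adjusted p = 0.00209) and Gclm by 1.30 (SE 0.45, adjusted p = 0.0259), and Gpx2 fell by 2.76 (SE 1.09, adjusted p = 0.0480). That is 3 higher, 1 lower and 5 not passing, in a comparison where edgeR called 40.3% of all genes, so a share of 4 in 9 is near the background. The median difference was -0.10 for the 9 genes, against -0.00 over all genes. Slc7a11 was at -1.51 (SE 0.69, adjusted p = 0.0879), Slc3a2 at -0.44, Gclc at 0.37, Gss at -0.10 and Chac1 at -0.19. None of the 9 had groups without overlap, where 13.8% of genes were higher and 13.7% lower without overlap. The calls of Gsr and Gpx4 held in all 22 fits with 1 library left out, that of Gclm in 20 (lost without Keap1-wildtype BAP 1 or Keap1-deleted BAP 1) and that of Gpx2 in 6. Without Keap1-wildtype BAP 5, which alone held 417 CPM, Gpx2 was at -1.72 (adjusted p = 0.183). Without the pair of libraries that stand apart Slc7a11 also passed, at -1.90 (adjusted p = 0.0383), where 39.2% of all genes did.

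The wildtype and deleted BAP tumours differed widely in the RNA of cell type markers. Of 10 basal keratinocyte markers 9 fell with Keap1 deletion in BAP tumours, of 10 fibroblast markers 10 rose, and of 10 macrophage markers 9 rose and 1 fell. Of 10 skeletal muscle markers 9 rose and 0 fell. The other lists moved less: 2 of 8 endothelial and 2 of 8 lymphocyte markers tested rose, and 0 of either fell. Of 8 neutrophil markers 1 rose and 2 fell, and of 3 salivary gland markers tested 1 rose and 0 fell. Over all genes tested edgeR called 20.3% higher and 20.0% lower in this comparison. The summed keratinocyte markers were 26829 to 62667 CPM in wildtype BAP and 321 to 1802 CPM in deleted BAP tumours. The summed fibroblast markers were 569 to 2092 and 12453 to 38275 CPM, and the macrophage markers 287 to 723 and 1815 to 3826 CPM. The summed muscle markers were 6.89 to 77.8 and 21.2 to 1207 CPM, with overlap. None of the keratinocyte, fibroblast, macrophage and muscle markers was at 0 in either group. In untreated tumours 0 of each of these lists passed in edgeR, where 0.292% of all genes did, with keratinocyte sums of 1527 to 48236 CPM in wildtype and 2381 to 28105 CPM in deleted tumours. The fibroblast sums there were 428 to 34793 CPM, with a median of 2385, in wildtype and 3236 to 70455 CPM, with a median of 17312, in deleted tumours. Skeletal muscle markers in untreated tumours summed to 5.68 to 463 CPM in wildtype and 158 to 1717 CPM in deleted ones. The median log2 difference in untreated tumours was -0.74 over the keratinocyte, 1.21 over the fibroblast, 0.22 over the macrophage and 2.16 over the muscle markers, against -0.05 over all genes. In bulk tumours, fewer cells of a type and less RNA per cell cannot be told apart. The part of other cell types in these differences was not tested.

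With BAP in Keap1-wildtype tumours 0 of the 9 genes passed in edgeR, where the share called among all genes was 0.0% with 2622 genes, and 0 of the 9, at an unadjusted p below 0.05. DESeq2 called 892 genes, 4.65% of those tested, and 0 members. The differences ran from -0.52 for Gsr to 1.03 for Gpx2 (SE 0.96), with a median of 0.00 against -0.09 over all genes. Gpx2 was at -0.02 without Keap1-wildtype BAP 5, and Gclc, at -0.44 over all libraries, was at 0.27 without Keap1-wildtype untreated 2.

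In Keap1-deleted tumours, those with BAP had less of the importer, the catalytic subunit, the synthetase and Gpx2. Of the 9 genes 5 fell, 0 rose and 4 did not pass, where 6.1% of all genes passed, 0.943% higher and 5.16% lower. The difference was -3.88 for Slc7a11 (SE 0.78, adjusted p = 0.0155), -4.69 for Gpx2 (SE 1.21, adjusted p = 0.0287) and -2.52 for Gclc (SE 0.67, adjusted p = 0.0332). It was -1.70 for Gss (SE 0.36, adjusted p = 0.0161) and -1.12 for Slc3a2 (SE 0.29, adjusted p = 0.0284). Gpx4 was higher by 1.01 (SE 0.34, adjusted p = 0.0801), in 5 of 5 tumours above the untreated ones as for 2.4% of genes. Gpx2 was below them in 5 of 5, as for 3.54% of genes. Gsr was at -0.65, Gclm at -0.62 and Chac1 at 0.79, all short of the threshold. The median of the 9 was -1.12, against -0.02 over all genes.

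The call of Slc7a11 held in all 22 fits with a library left out, with differences from -4.28 to -3.49. That of Gss held in 20 (lost without Keap1-deleted untreated 5 or Keap1-deleted BAP 4), that of Slc3a2 in 16, and those of Gclc and Gpx2 in 14 each. Slc3a2, Gclc and Gpx2 were lost without Keap1-deleted untreated 1, 2 or 5, the tumours in which they were high, and Slc3a2 also without Keap1-deleted BAP 3, 4 or 5. Gclc and Gpx2 were lost without any single Keap1-deleted BAP tumour, though their differences stayed between -2.78 and -2.28 and between -4.99 and -4.29. Without the pair of libraries that stand apart the same 5 genes fell, where 8.15% of all genes passed. With only the groups compared in the fit 0 of these 5 passed, with adjusted p from 0.0508 for Gpx2 to 0.0981 for Slc3a2, and Gpx4 was the 1 member that did, where 2.05% of all genes passed. With no low-count filter Slc7a11, Slc3a2 and Gss passed, where 1.12% of all genes did. Of the basal keratinocyte markers 7 of 10 fell in this comparison over all libraries, where 5.16% of all genes fell, and 0 of 10 fibroblast markers passed.

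The interaction subtracts the Keap1 difference of untreated tumours from that of BAP tumours. It was negative and passed for 4 of the 9 genes, where 6.94% of all genes passed, 2.47% positive and 4.47% negative. These were Slc7a11 at -4.28 (SE 0.98, adjusted p = 0.0296), Gpx2 at -5.72 (SE 1.51, adjusted p = 0.0342), Slc3a2 at -1.41 (SE 0.39, adjusted p = 0.0379) and Gss at -1.70 (SE 0.48, adjusted p = 0.0408). Gclc was at -2.08 (adjusted p = 0.134) and Gpx4 at 1.42 (adjusted p = 0.0590). For Gclm the interaction was -0.15 (SE 0.63), for Gsr -0.13 (SE 0.52) and for Chac1 0.12 (SE 0.64), so the Keap1 difference of these 3 was not shown to depend on BAP. Without the pair of libraries that stand apart Slc7a11 (adjusted p = 0.0199) and Gpx2 (adjusted p = 0.0291) passed while Slc3a2, at -1.44, and Gss (adjusted p = 0.0662) did not, where 6.44% of all genes passed. With no low-count filter 0 of the 9 passed, and 0.312% of all genes. With each library left out in turn the call held in 18 of 22 fits for Slc7a11, 14 for Gpx2, 12 for Slc3a2 and 8 for Gss. Krt14 itself had an interaction of -4.79 (SE 1.21, edgeR adjusted p = 0.0309). Of 10 basal keratinocyte markers the interaction passed as negative for 6 and as positive for 0. It passed as positive for 8 of 10 macrophage and 1 of 10 fibroblast markers, and as negative for 0 of either. The part of cell content in the interactions of the 9 genes was not tested. The comparisons share groups, so their values stand side by side and are not separate evidence.

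**Figure D2:**
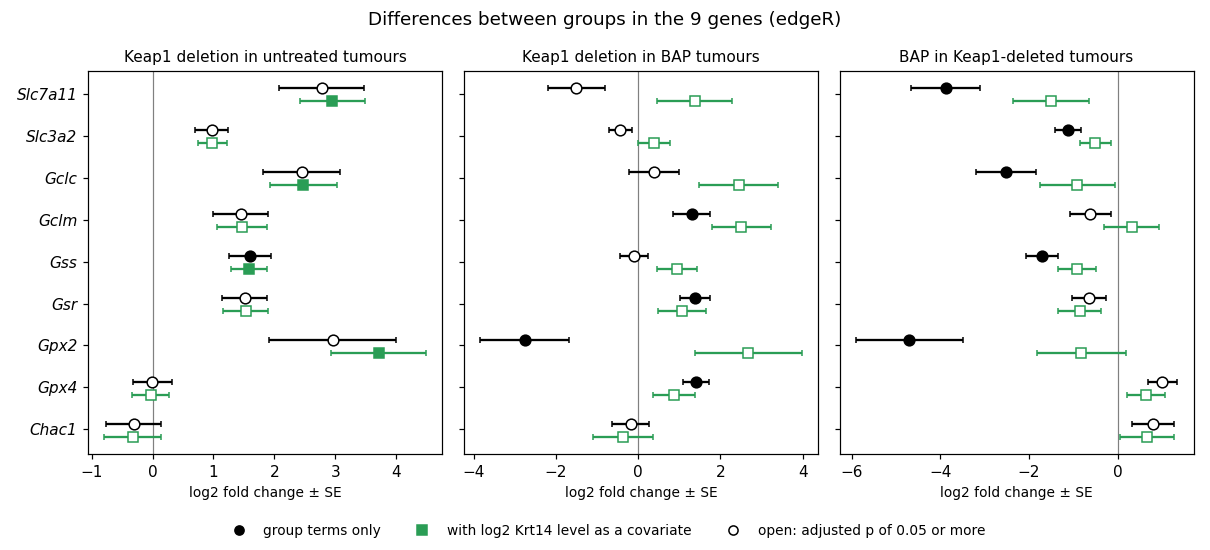
Log2 differences with their SE for the 9 genes in 3 comparisons from edgeR, with group terms only (black) and with the log2 Krt14 level of each library as a covariate (green), where open symbols did not pass. For Keap1 deletion in BAP tumours Gpx2 lies at -2.76 with group terms only and at 2.67 with the covariate, while Gclc, Gclm, Gsr and Gpx4 lie above 0 in both fits. With the covariate 0 of the 9 genes, and 0.0% of all genes, pass in that comparison, and the Krt14 ranges of its groups do not overlap.

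The level of Krt14 was then set beside the 9 genes. In the deleted untreated tumours Krt14 was 19819, 11554, 1390, 3336 and 21892 CPM, so that the tumours with most Slc7a11, Gclc, Gclm, Gss and Gpx2, numbers 1, 2 and 5, were also those with most Krt14. In the deleted BAP tumours it was 824, 1159, 449, 13.01 and 1063 CPM. In edgeR, with a term per group and a common slope on log2 Krt14, 2 of the 9 genes rose with Krt14, where 13.7% of all genes passed, 7.85% rising and 5.82% falling with it. Gpx2 had a slope of 1.01 (SE 0.22, adjusted p = 0.00544) and Slc7a11 of 0.43 (SE 0.11, adjusted p = 0.0144), in log2 units per log2 unit of Krt14. Gclc was at 0.33 (adjusted p = 0.0900), Gclm at 0.19, Gss at 0.17, Slc3a2 at 0.13, Gsr at -0.05, Gpx4 at -0.09 and Chac1 at -0.03. This is 1 slope for all 4 groups, and not every group followed it. Keap1-wildtype untreated 1 to 5 held 36962, 9991, 28297, 31796 and 16000 CPM of Krt14. Their Gpx2, in the same order, was at 43.9, 102, 63.0, 108 and 27.2 CPM, without a common rise. Keap1-wildtype untreated 6, with 763 CPM of Krt14, held 16 counts of Gpx2. Keap1-deleted BAP 4, with 13.01 CPM of Krt14, held 8 counts of it. Among wildtype BAP tumours number 6, with the most Krt14 at 50546 CPM, held the least Gpx2 at 13.9 CPM, and number 2, with the least Krt14 at 20039 CPM, held 98.7 CPM of Gpx2. Libraries share their depth and composition in such a slope.

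The Gpx2 slope held in all 22 fits with a library left out, from 0.86 to 1.09. The Slc7a11 slope was lost without Keap1-wildtype untreated 6 (0.40, adjusted p = 0.103). Without the pair of libraries that stand apart the slopes were 0.86 for Gpx2 (adjusted p = 0.0542) and 0.37 for Slc7a11 (adjusted p = 0.172), and Gss passed at 0.27 (adjusted p = 0.0407), where 3.62% of all genes did. With Krt5 in place of Krt14 Gpx2 was the 1 member that passed, where 9.67% of all genes did.

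With Krt14 as a covariate, 4 of the 9 genes rose with Keap1 deletion in untreated tumours, where 0.703% of all genes passed. These were Gpx2 at 3.71 (SE 0.78, adjusted p = 0.0335), Slc7a11 at 2.95 (SE 0.53, adjusted p = 0.0123), Gclc at 2.48 (SE 0.55, adjusted p = 0.0433) and Gss at 1.59 (SE 0.30, adjusted p = 0.0168). In BAP tumours the covariate left 0 of 9 passing in edgeR, and 0.0% of all genes, with Gclm (unadjusted p = 0.00221) and Gclc (unadjusted p = 0.0191) below an unadjusted 0.05. There the signs of Slc7a11, Slc3a2, Gss and Gpx2 turned to 1.37, 0.39, 0.95 and 2.67, and Gclm was at 2.51, Gclc at 2.44, Gsr at 1.07 and Gpx4 at 0.87. The Krt14 ranges of deleted BAP (13.01 to 1159 CPM) and wildtype BAP tumours (20039 to 50546 CPM) did not overlap, so that in these groups Keap1 deletion and Krt14 level cannot be told apart. For BAP in deleted tumours the covariate left Slc7a11 at -1.51 (SE 0.86), Gclc at -0.91 and Gpx2 at -0.83. In that edgeR fit 0 of 9 passed where 0.0104% of genes did, and Gss, at -0.91, had an unadjusted p of 0.0459. The Krt14 range of deleted untreated tumours, 1390 to 21892 CPM, did not overlap that of deleted BAP tumours either. BAP and Krt14 level therefore cannot be told apart in the deleted tumours.

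**Figure D3:**
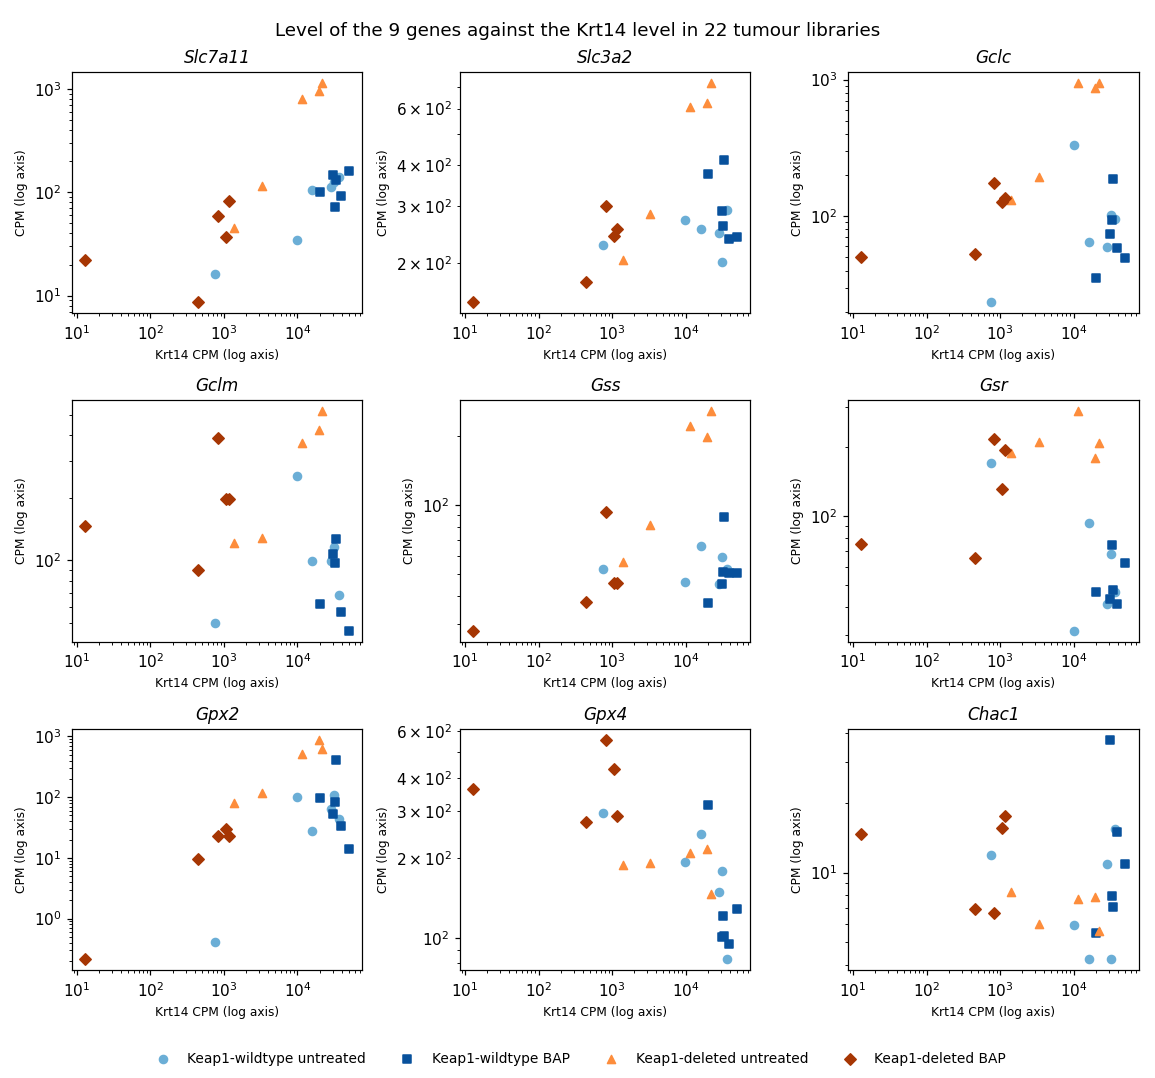
Level of each of the 9 genes against the Krt14 level of the same library, both in CPM on log axes, with 1 point per library and a marker per group. The slope common to the 4 groups was 1.01 for Gpx2 and 0.43 for Slc7a11, the second lost without Keap1-wildtype untreated 6 and both without the pair of libraries that stand apart, while in the wildtype BAP group Gpx2 is lowest where Krt14 is highest and the Keap1-deleted BAP tumours all lie at or below 1159 CPM of Krt14.

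Partner genes were compared per length, as TPM from the deposited count and length of each gene. The ratio of Gclm to Gclc, the modifier over the catalytic subunit, was 0.291, 0.233, 0.554, 0.393 and 0.329 in deleted untreated tumours. It was 1.32, 0.878, 1.02, 1.74 and 0.930 in deleted BAP tumours, without overlap between them. Wildtype untreated tumours ran from 0.425 through 0.794 to 1.28 and wildtype BAP tumours from 0.402 through 0.596 to 1.04. Gclc thus exceeded Gclm per length in every deleted untreated tumour. The median ratio of both wildtype groups had the same order, and both wildtype ranges overlapped that of the deleted untreated tumours. The ratio of Slc7a11 to Slc3a2 had medians of 0.109 in wildtype untreated, 0.0899 in wildtype BAP, 0.331 in deleted untreated and 0.0387 in deleted BAP tumours. The ratio of Gpx2 to Gpx4 had medians of 0.259, 0.241, 1.36 and 0.0225 in the same order. In deleted BAP tumours its highest value was 0.0439, below the lowest value of the deleted untreated (0.234) and wildtype BAP (0.0590) tumours. The wildtype untreated tumours did overlap them, through number 6 at 0.000763. The next lowest of that group, number 5, was at 0.0604. These ratios were not tested.

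**Figure D4:**
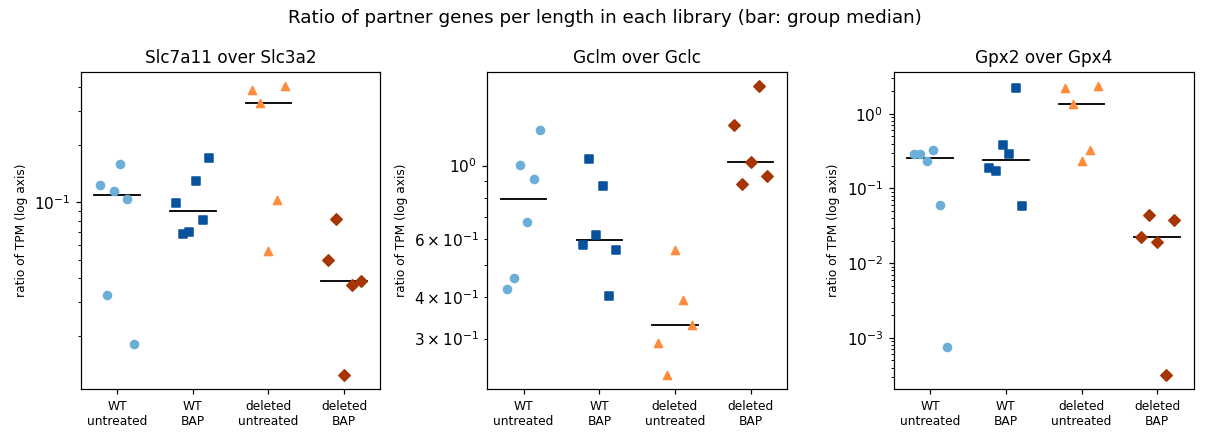
Ratio of TPM of 3 pairs of partner genes in each of the 22 tumours, on a log axis, with a bar at the group median. Gclm over Gclc is lowest in the Keap1-deleted untreated tumours (0.233 to 0.554) and does not overlap the Keap1-deleted BAP tumours (0.878 to 1.74).

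The order of the 9 genes per length also differed between groups. By mean TPM, Gpx4 led in wildtype untreated tumours at 289 ± 162 (SD, n = 6) and in deleted BAP tumours at 754 ± 150 (SD, n = 5). Slc3a2 led in wildtype BAP tumours at 180 ± 53.5 (SD, n = 6) and Gclc in deleted untreated tumours at 462 ± 289 (SD, n = 5). Slc7a11 and Chac1 held the lowest places in both wildtype groups, with means from 13.2 to 17.4 TPM. In deleted untreated tumours Slc7a11 averaged 120 ± 92.9 TPM (SD, n = 5) and in deleted BAP tumours 10.3 ± 7.57 TPM (SD, n = 5), the lowest of the 9. Neighbours in these orders overlapped in their ranges except at 3 places. These were Gpx4 above Slc3a2 (594 TPM against 270) and Gclc above Gss (52.0 against 46.7) in deleted BAP tumours, and Gss above Chac1 (36.7 against 19.4) in deleted untreated tumours.

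Other genes of the pathway were followed in 9 lists of 93 genes, of which 89 were tested. In untreated tumours 3 of the 89 rose and 0 fell with Keap1 deletion, where 0.214% of all genes rose and 0.0781% fell. Slc1a4, a neutral amino acid transporter, rose by 2.08 (SE 0.30, adjusted p = 0.00424), Sqor, the mitochondrial sulfide oxidase, by 2.80 (SE 0.41, adjusted p = 0.00424) and Esd, which hydrolyses S-formylglutathione, by 1.73 (SE 0.36, adjusted p = 0.0457). All 16 integrated stress response genes, all 12 ferroptosis regulators and all 11 genes of the gamma-glutamyl cycle failed to pass there. The median of the 89 was -0.05, equal at this precision to that of all genes.

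In BAP tumours 20 of the 89 rose and 35 fell with Keap1 deletion, where 20.3% of all genes rose and 20.0% fell. Among transporters, Slc1a4 rose by 2.01 and Slc7a7 by 2.76, while Slc1a1, a carrier of glutamate and cysteine, was lower at -5.80 (SE 1.42, adjusted p = 0.00355). In the list of transsulfuration, the route from methionine to cysteine, and of cysteine use, 3 of 12 rose and 5 fell. Those that fell included Cbs, cystathionine beta-synthase, at -4.68 (SE 0.86) and Ahcy, adenosylhomocysteinase, at -2.42 (SE 0.35). In the gamma-glutamyl cycle 3 of 11 rose and 4 fell: the transpeptidase gene Ggt5 rose by 1.81 while its relative Ggt6 fell, at -4.87, as did Ggct, at -2.39. Gpx7 and Gpx8, peroxidases of the endoplasmic reticulum, rose by 4.07 and 4.02, and the glutaredoxin gene Glrx fell by 3.07. The glyoxalase genes Glo1 and Hagh fell, at -1.85 and -1.98. Of 12 ferroptosis regulators 2 rose, Acsl4 by 1.96 and Vdac3 by 0.73, and 4 fell, including the lipoxygenase gene Alox12 at -4.44. Of 7 selenoprotein synthesis genes, which GPX4 and GPX2 need as selenoproteins, 0 rose and 3 fell, Sephs2 at -1.36, Sepsecs at -0.75 and Secisbp2 at -0.51. Of 16 integrated stress response genes 1 rose and 8 fell, with Slc7a1 at -1.68, Ddit4 at -1.59 and Ppp1r15a at -1.42.

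With BAP, 0 of the 89 passed in edgeR in wildtype tumours, where 0.0% of all genes did. In deleted tumours 4 of the 89 rose and 11 fell, where 0.943% of all genes rose and 5.16% fell. Those that fell included Slc1a1 at -5.97, Ggt6 at -3.55, Tst, the sulfur transferase rhodanese, at -2.66, Glrx at -2.47 and Sqor at -1.45. Slc25a40, a mitochondrial glutathione carrier, rose by 1.27 (SE 0.26, adjusted p = 0.0160). Of the integrated stress response genes 2 of 16 rose, Ddit3 by 1.38 (SE 0.38, adjusted p = 0.0345) and Phgdh by 0.85, and 0 fell. The interaction was positive for 3 and negative for 12 of the 89, where it was so for 2.47% and 4.47% of all genes, among them Slc25a40 at 1.53, Ddit3 at 1.81, Glo1 at -1.80 and Ahcy at -2.17.

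Genes with the most similar profile over the 22 libraries were taken by Pearson correlation of log2 CPM, as a description. For Slc7a11 they were Entpd5 (r = 0.957), Cbr3 (0.935) and Acss2 (0.914), and Slc3a2 was the 6th nearest of 19201 genes (0.853). For Gclm the nearest was Gclc (0.875), followed by the glutathione transferase genes Gstm1 (0.865) and Gstp1 (0.846). For Gclc they were Abcc4 (0.880), Gclm and Adh7 (0.868), and for Gpx2 the glutathione transferase genes Gsta1 (0.896) and Gsta2 (0.894) and the carboxylesterase gene Ces1h (0.870). Chac1 had weaker neighbours, Vps26a (0.742), D6Wsu163e (0.731) and Pip5k1a (0.713). After centring on group means Gclc and Gclm still correlated at 0.903 and Slc7a11 and Entpd5 at 0.928. Slc3a2 then moved from 6th to 250th among the genes nearest to Slc7a11, at 0.748. The neighbours of Gpx2 became Sostdc1 (0.941), the keratin gene Krt17 (0.932) and Trp73 (0.926). All these profiles share library depth and cell content.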

How the data were processed

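RNA was sequenced from 22 tumours, extracted from pulverised frozen tissue and read as paired ends on an Illumina platform, per the labels' protocols. The authors deposited, per library, an expected count and a length per Ensembl gene ID, per the file headers. The expected counts were whole numbers at a tolerance of 1e-09, and each gene's deposited length did not vary between files, so TPM from it ignores differences in transcript use. The aligner, build and annotation are not given in the sources used. Symbols and positions come from GENCODE M21 (GRCm38), matched by ID: 52073 IDs, with 99.4% of counts, had a symbol. No library was left out, and no pair of libraries agreed within sampling noise (lowest chi-square per degree of freedom 96.5 over 231 pairs).

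Counts were fitted with edgeR 4.0.16 in R 4.3.3: filterByExpr with a minimum count of 10, TMM, 1 robust quasi-likelihood model over all 22 libraries with a term per group, and Benjamini-Hochberg adjustment over 19202 genes, with calls at an adjusted p under 0.05. The Krt14 slope was fitted in a model with group terms and log2 Krt14 CPM (prior count 2). The procedure was tested on simulated counts for Keap1 deletion in BAP tumours and for the Krt14 slope only. Far fewer genes were changed there than passed in the real BAP comparison, so the simulation does not cover differences that wide. Alternatives were DESeq2 1.42.0 and its size factors, library totals as the only scaling, other low-count filters, the final R of some sample titles as a covariate, only the groups compared, Krt14 as a covariate, Krt5 in place of Krt14, without the pair of libraries that stand apart, and each library left out in turn.

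The members and lists were chosen with earlier results of these data known. Named genes were the 9 members, Keap1, Krt14, Nqo1, Txnrd1 and Srxn1 as reference, up to 3 passing genes of each pathway list per comparison by smallest p, and the 3 nearest genes by profile of Slc7a11, Gclc, Gclm, Gpx2 and Chac1; not all of them are reported here. Groups are by genotype and treatment labels, and libraries are numbered in deposition order.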

Additional observations from a re-analysis of the deposited data

Results flagged for a closer look

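Some tumours stood apart from the others of their group in the level of a member or reference gene, by Dixon's test at its 95% critical value, which flags about 1 in 20 groups by chance; 8 of 56 sets of a gene in a group met it. Keap1-wildtype untreated 2 held 331 CPM of Gclc, where the others held 23.4 to 103, and 253 CPM of Gclm, where the others held 50.3 to 116. Keap1-wildtype BAP 5 held 417 CPM of Gpx2 (others 13.9 to 98.7) and 88.3 CPM of Gss (others 37.1 to 50.8). Keap1-deleted BAP 1 held 92.7 CPM of Gss (others 28.2 to 45.7). Keap1-wildtype BAP 2 held 317 CPM of Gpx4 (others 94.9 to 129), Keap1-wildtype BAP 4 held 37.3 CPM of Chac1 (others 5.48 to 14.9), and Keap1-wildtype untreated 6 held 205 CPM of Txnrd1, thioredoxin reductase, where the others held 33.3 to 76.2.

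The edgeR interaction of Keap1 deletion and BAP passed over all libraries for Slc7a11 (-4.28), Slc3a2 (-1.41), Gss (-1.70) and Gpx2 (-5.72). With each library left out in turn these calls held in 18, 12, 8 and 14 of 22 fits, in that order. With Krt14 as a covariate 0 of the 9 genes passed in the edgeR interaction, and 0 had an unadjusted p below 0.05; the share of all genes that passed there was 0.0% too, so this count says nothing particular to the 9.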

How the results depend on the processing

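The lowest count of a member in any library was 8, for Gpx2, and 110 for Chac1, so counting error is largest for Gpx2 in that library. The number of the 9 genes that passed with Keap1 deletion in untreated tumours was 1, and it was 7 with DESeq2, 0 with the title suffix as a covariate, 5 without the pair of libraries that stand apart, 4 with Krt14 as a covariate and 0 with only the groups compared. With Keap1 deletion in BAP tumours it was 4, and 0 with Krt14 as a covariate. With BAP in deleted tumours it was 5, and 3 with no low-count filter, 0 with Krt14 and 1 (Gpx4) with only the groups compared. For the interaction it was 4, and 0 with no filter, 2 without the pair and 0 with Krt14. For the Krt14 slope it was 2, and 1 without the pair and 1 with Krt5. The cause was not tested.

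With 1 library left out, over 22 fits, the numbers ran from 0 to 5 for Keap1 in untreated tumours, 2 to 4 for Keap1 in BAP tumours, 0 to 0 for BAP in wildtype, 1 to 6 for BAP in deleted tumours, 0 to 5 for the interaction and 1 to 3 for the slope. In untreated tumours it was 5 without Keap1-wildtype untreated 6, 3 without Keap1-deleted untreated 3, and 0 without any of Keap1-wildtype untreated 1, 3, 4 or 5, any wildtype BAP library, Keap1-deleted untreated 1, 2 or 5, or Keap1-deleted BAP 2, 3 or 5. For Keap1 in BAP tumours it was 2 without Keap1-deleted BAP 1. For BAP in deleted tumours it was 3 without Keap1-deleted BAP 1 or 2, 2 without Keap1-deleted untreated 1 or 2 or BAP 3 or 5, and 1 without Keap1-deleted untreated 5 or BAP 4. For the interaction it was 2 without Keap1-wildtype BAP 4 or Keap1-deleted BAP 3, 1 without Keap1-wildtype untreated 5, Keap1-wildtype BAP 5 or Keap1-deleted BAP 5, and 0 without Keap1-deleted untreated 1, 2 or 5 or Keap1-deleted BAP 4. For the slope it was 1 without Keap1-wildtype untreated 6.

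Signs turned, none past the threshold, for Keap1 deletion in BAP tumours with Krt14 as a covariate (Slc7a11 1.37, Slc3a2 0.39, Gss 0.95, Gpx2 2.67), with library totals (Gss 0.33, Chac1 0.29) and without Keap1-wildtype BAP 4 (Chac1 0.40, from -0.35 over the fits with 1 library out). They also turned for BAP in wildtype tumours without Keap1-wildtype untreated 2 (Gclc 0.27, other fits down to -0.85) or Keap1-wildtype BAP 5 (Gpx2 -0.0153, other fits up to 1.30), for Gclm with Krt14 as a covariate (BAP in deleted tumours 0.32, interaction 1.03), and for the Gsr slope without the pair (0.13) or without Keap1-wildtype untreated 6 (0.14, other fits down to -0.17). A further 45 turns of sign, in 8 differences, are not among these: the value over all libraries lay within 1 SE of 0, moved by at most 1 SE and passed in neither fit. They reached 0.16 for Gpx4 (Keap1 in untreated tumours, from -0.01), 0.10 for Gss (Keap1 in BAP tumours), -0.27 for Gss (BAP in wildtype), 0.26 for Gclm, 0.21 for Gsr and -0.15 for Chac1 (interaction), and 0.01 for Gsr and Chac1 (slope). Library totals as the only scaling moved the median of all genes to 0.44 for Keap1 in BAP tumours, 0.43 for the interaction, -0.27 for BAP in wildtype and 0.13 for BAP in deleted tumours. Under it 6051 of 8244 genes called were higher for Keap1 in BAP tumours, where TMM gave 3900 of 7746; the counts were 1102 of 1772 against 475 of 1333 for the interaction, 275 of 1030 against 181 of 1172 for BAP in deleted tumours and 59 of 67 against 41 of 56 for Keap1 in untreated tumours. Over all genes the calls ran, with 1 library left out and with the other alternatives, from 16 to 2731 and 0 to 2530 for Keap1 in untreated tumours, 6768 to 8198 and 0 to 8645 for Keap1 in BAP tumours, 0 to 0 and 0 to 892 for BAP in wildtype, 181 to 1722 and 2 to 2102 for BAP in deleted tumours, 1 to 2309 and 0 to 3021 for the interaction and 622 to 4796 and 708 to 4176 for the slope. No paired analysis was possible because replicate numbers were given in deposition order and do not pair tumours across groups.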

Other observations

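Txnrd1, a reference NRF2 target that encodes thioredoxin reductase, was at 258.6, 367.5, 358.6, 233.5 and 291.0 CPM in deleted untreated tumours and at 403.1, 471.9, 239.7, 170.5 and 341.2 CPM in deleted BAP tumours, where wildtype BAP tumours held 49.6 to 82.2 CPM. It rose by 1.87 (SE 0.35, edgeR adjusted p = 0.0238) and by 2.30 (SE 0.35, adjusted p = 3.20e-04) with Keap1 deletion, and its interaction was 0.43 (adjusted p = 0.609). Nqo1, the quinone reductase, rose by 2.67 (SE 0.56, adjusted p = 0.0457) in untreated and by 1.54 (SE 0.54, adjusted p = 0.0293) in BAP tumours. Srxn1, sulfiredoxin, was higher by 1.86 (SE 0.50, adjusted p = 0.0937) in untreated and by 0.26 (SE 0.49, adjusted p = 0.705) in BAP tumours and passed in neither. Nqo1 was at 403.5, 177.3, 19.4, 54.3 and 134.5 CPM in deleted BAP tumours, where wildtype BAP tumours held 30.6 to 85.8 CPM. Thus 3 of the 5 lay above and 1 lay below every wildtype BAP tumour. Its Krt14 slope was 0.34 (SE 0.09, edgeR adjusted p = 0.0215) where Txnrd1 had -0.09. Within the deleted BAP group number 3 held the lowest Slc7a11, Gsr, Gclm, Gpx4 and Nqo1, and number 4 the lowest Slc3a2, Gclc, Gss and Gpx2.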
